A study of Mus musculus with 9 samples.

Results

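The genes described here were the 4 TEAD transcription factor genes (Tead1, Tead2, Tead3 and Tead4), the genes of the TEAD cofactors YAP and TAZ (Yap1 and Wwtr1) and 4 well-known target genes of the complex (Ctgf, Cyr61, Ankrd1 and Wisp1). They were taken by name, by a rule that uses no measured value, and make up 10 of the 37273 annotated genes. Chromatin accessibility was measured by ATAC-Seq, in which a transposase cuts open DNA, during the conversion of mouse embryonic fibroblasts (MEFs) into induced pluripotent stem cells (iPSCs). The starting MEFs carried a GFP tag at Oct4 and were infected with pMXs retroviruses for Oct4, Sox2, Klf4 and c-Myc (OSKM). Each of 9 conditions had 1 library. D0 and D3 cells were not sorted, D6T- and D9T- cells were sorted as Thy-1-negative on day 6 and day 9, D12S+ and D16S+ cells were sorted as SSEA-1-positive on day 12 and day 16, and the iPSCs, the end point of the course, were not sorted. The remaining libraries, D6 siH3.3 and D6 siNT, came from day 6 cells that had received siRNAs against histone H3.3 or a non-targeting control before infection, and the labels give them as Thy-1-negative. Per the labels, reprogramming took place in a medium with serum replacement, LIF, bFGF, ascorbic acid and the GSK3 inhibitor CHIR99021 (the methods name further media for such cultures), whereas MEFs were grown in serum, so the factors, the medium and the sorting cannot be told apart in a comparison with D0.

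TEAD proteins bind DNA through the letters GGAATG and have little activity of their own. YAP and TAZ carry no DNA-binding domain and act on genes through TEADs. The Hippo kinases phosphorylate YAP and TAZ and keep them out of the nucleus, and cell spreading and a stiff substrate relieve that block, so that cultured fibroblasts are known for strong YAP and TAZ activity. In mm9 the TEAD genes lie at Tead1 (chr7:119822832-120050319, plus strand), Tead2 (chr7:52471123-52489005, plus strand), Tead3 (chr17:28468616-28487750, minus strand) and Tead4 (chr6:128174306-128250841, minus strand). The cofactor genes are Yap1 (chr9:7931999-8004596, minus strand) and Wwtr1 (chr3:57259571-57379832, minus strand). The targets are Ctgf (chr10:24315248-24318489, plus strand), Cyr61 (chr3:145309935-145312949, minus strand), Ankrd1 (chr19:36186455-36194334, minus strand) and Wisp1 (chr15:66722882-66754763, plus strand). Accessibility of a gene says nothing direct about the activity of its protein.

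Regions described below are shown first, since their letters can be set beside their values. The Cyr61 promoter was open in every library, and each of the others had no region in some library. The regions were picked with their values and letters known: the first 7 because they hold the TEAD letters, the last pair as changing regions that do not. Each is the stretch around the highest summit of an open element, on the plus strand of mm9, with bases of annotated UTRs left out. Capitals mark GGAATG or its reverse complement CATTCC (TEAD), and TGANTCA (AP-1, the FOS and JUN factors that often bind beside TEAD). The first is the part of the Cyr61 promoter upstream of the start site (chr3:145312950-145313067), the next pair are the elements 14.2 kb and 6.02 kb upstream of Ctgf (chr10:24300955-24301154 and chr10:24309129-24309328), then follow the Ankrd1 promoter (chr19:36194482-36194681), the element 9.59 kb upstream of Ankrd1 (chr19:36203825-36204024), an element 13.4 kb upstream of Wisp1 (chr15:66709403-66709602), and an element at an exon of Tead1 that was open in late libraries only (chr7:119985485-119985684). The pair without the TEAD letters are the Wisp1 promoter (chr15:66722595-66722794) and an element 20.7 kb into Yap1 that was open in late libraries only (chr9:7983799-7983998).
Cyr61 promoter: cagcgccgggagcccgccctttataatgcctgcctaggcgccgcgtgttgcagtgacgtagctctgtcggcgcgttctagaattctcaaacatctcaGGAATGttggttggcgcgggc
Ctgf upstream, 14.2 kb: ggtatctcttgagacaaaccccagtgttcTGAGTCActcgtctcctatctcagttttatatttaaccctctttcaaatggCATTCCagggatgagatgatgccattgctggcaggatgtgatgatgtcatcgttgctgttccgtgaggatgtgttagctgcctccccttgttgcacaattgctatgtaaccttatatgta
Ctgf upstream, 6.02 kb: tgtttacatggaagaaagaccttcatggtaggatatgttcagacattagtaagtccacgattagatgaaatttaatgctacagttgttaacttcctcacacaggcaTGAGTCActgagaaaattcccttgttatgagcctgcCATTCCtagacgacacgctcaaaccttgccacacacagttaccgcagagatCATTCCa
Ankrd1 promoter: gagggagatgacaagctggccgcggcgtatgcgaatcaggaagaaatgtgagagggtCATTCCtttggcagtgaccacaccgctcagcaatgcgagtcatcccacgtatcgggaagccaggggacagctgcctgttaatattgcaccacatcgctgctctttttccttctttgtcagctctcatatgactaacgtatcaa
Ankrd1 upstream, 9.59 kb: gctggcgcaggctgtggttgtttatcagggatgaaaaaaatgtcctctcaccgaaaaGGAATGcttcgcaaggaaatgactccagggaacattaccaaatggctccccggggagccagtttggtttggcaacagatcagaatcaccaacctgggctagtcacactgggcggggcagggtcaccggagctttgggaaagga
Wisp1 upstream, 13.4 kb: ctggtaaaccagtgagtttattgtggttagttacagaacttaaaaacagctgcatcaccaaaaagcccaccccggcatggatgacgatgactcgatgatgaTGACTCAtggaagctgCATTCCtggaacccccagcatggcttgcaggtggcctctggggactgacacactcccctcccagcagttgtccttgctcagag
Tead1 exon element: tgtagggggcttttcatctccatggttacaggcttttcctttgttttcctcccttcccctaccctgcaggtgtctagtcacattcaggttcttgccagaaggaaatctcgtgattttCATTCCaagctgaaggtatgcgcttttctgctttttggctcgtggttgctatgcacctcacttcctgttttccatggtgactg
Wisp1 promoter: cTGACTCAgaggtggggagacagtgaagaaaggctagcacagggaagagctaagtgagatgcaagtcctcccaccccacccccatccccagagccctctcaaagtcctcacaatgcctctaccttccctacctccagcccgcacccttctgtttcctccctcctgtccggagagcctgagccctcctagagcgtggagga
Yap1 intragenic, 20.7 kb: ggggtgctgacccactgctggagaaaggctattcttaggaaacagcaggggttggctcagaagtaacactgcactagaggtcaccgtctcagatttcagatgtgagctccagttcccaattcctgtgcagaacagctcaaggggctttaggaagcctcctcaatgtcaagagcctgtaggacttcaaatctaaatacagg
The Ctgf element at 14.2 kb held 1 TEAD and 1 AP-1 match, that at 6.02 kb held 2 TEAD and 1 AP-1 match, the Wisp1 upstream element held 1 of each, and the Cyr61, Ankrd1 and Tead1 windows held 1 TEAD match and no AP-1 match. The Wisp1 promoter held 1 AP-1 match, and the Yap1 element neither. The late-only elements 12.1 kb and 64.5 kb into Tead1 and 4.86 kb into Yap1, described below, held no TEAD match in their windows either. A match is a run of letters and not a measured binding site.

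Libraries differed in depth and in the height of open chromatin in general. Total tags ran from 13213117 (D9T-) to 31714845 (D0), and peaks merged into 36708 (D9T-) to 133132 (D6T-) regions per library. The value of a gene was the highest summit pileup, the number of overlapping extended tags, in any region that touched the 3 kb upstream of one of its start sites, per 1000000 total tags, called the depth-scaled value. The median of this value over the 9818 protein-coding promoters open in all 9 libraries was 0.946 (D0), 2.28 (D3), 3.83 (D6T-), 1.51 (D9T-), 2.44 (D12S+), 2.31 (D16S+), 1.20 (iPSCs), 1.45 (D6 siH3.3) and 1.38 (D6 siNT). On the log2 scale this common shift from D0 was 1.27 (D3), 2.02 (D6T-), 0.68 (D9T-), 1.37 (D12S+), 1.29 (D16S+) and 0.35 (iPSCs), so each gene is also given relative to this median, called the relative value. With 1 library per condition no test was possible. The 95% intervals are exact Poisson or Clopper-Pearson intervals, cover counting error only, and leave out the spread between cultures. In a mixed culture, fewer open cells and a lower signal in each cell cannot be told apart.

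The cell types named by the labels were checked against marker genes. The promoters of the 6 pluripotency markers (Nanog, Zfp42, Tdh, Esrrb, Utf1 and Dppa5a) were open for 1 of 6 at D0 (Esrrb), 3 of 6 at D3 and D6T- (Tdh, Esrrb and Utf1), 0 of 6 at D9T- and 6 of 6 at D12S+, D16S+ and in iPSCs. The summed relative value of the 6 fibroblast markers ranged from 2.81 at D3 and 2.57 at D0 to 0.844 in iPSCs, and Thy1, the sorting marker, had a promoter region at D0 (13 tags), D3 (17), D12S+ (11), D16S+ (12) and in iPSCs (13) and none in the 4 libraries given as Thy-1-negative. The epithelial genes Cdh1 and Epcam were both open from D12S+ onward, and the blood marker Ptprc had no region in any library. The endothelial marker Pecam1 had a promoter region at D0 (15 tags), D3 (16), D6T- (22) and in iPSCs (16), and none in the other libraries. How far a change in cell makeup takes part in the values below was not tested.

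All 10 members had a promoter region at D0, D3, D6T-, D12S+ and in D6 siNT. Of all protein-coding genes, 58.0% had one at D0, 67.8% at D3, 68.3% at D6T-, 63.0% at D12S+ and 54.8% in D6 siNT. The members with one were 7 at D9T- (50.4% of protein-coding genes), 8 at D16S+ (63.0%), 9 in iPSCs (63.9%) and 8 in D6 siH3.3 (54.3%). Relative to open promoters, no member was 2-fold higher than D0 in any later library, and those 2-fold lower were mostly Ankrd1 and Wisp1. The targets thus split: Ankrd1 and Wisp1 had no promoter region in some of the later libraries, while Ctgf and Cyr61 had one in every library.

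**Figure D1:**
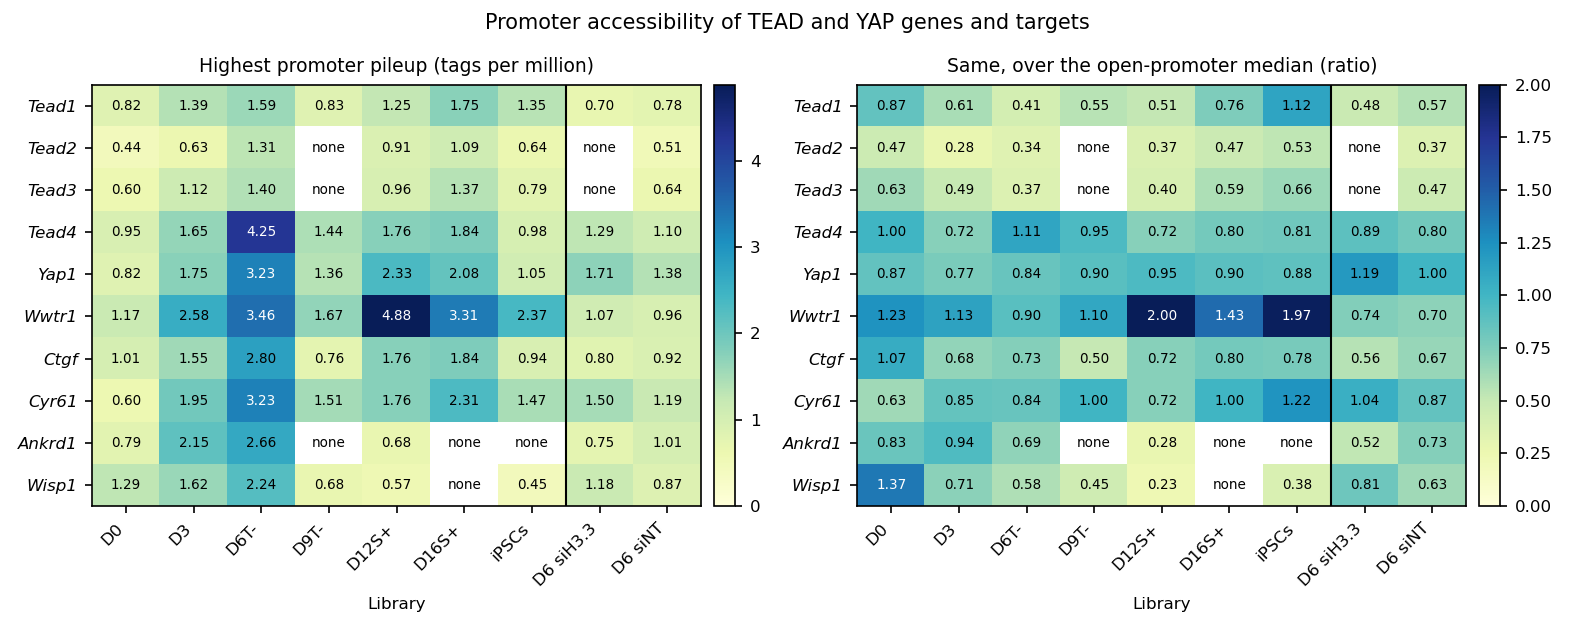
Highest promoter pileup of the 10 genes (rows) in the 9 libraries (columns), in tags per 1000000 total tags (left) and divided by each library's open-promoter median (right); "none" marks a library with no region, and 1 library stands behind each value. Ankrd1 had no region at D9T-, D16S+ and in iPSCs, Wisp1 had none at D16S+, and Yap1 kept a relative value of 0.768 to 0.953 over the time course.

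Of the TEAD genes, Tead1 and Tead4 were open at the promoter in every library. The Tead1 promoter pileup was 26 tags (D0), 42 (D3), 34 (D6T-), 11 (D9T-), 22 (D12S+), 37 (D16S+), 36 (iPSCs), 13 (D6 siH3.3) and 17 (D6 siNT). Its relative value was 0.478 times that of D0 at D6T- (95% interval 0.279 to 0.830) and 1.30 times in iPSCs (0.762 to 2.24). In iPSCs the highest Tead1 summit was at an inner start site 12.1 kb into the gene, which was open in late libraries only (18, 29 and 36 tags at D12S+, D16S+ and in iPSCs). The element at the first Tead1 start site had 27 tags in iPSCs, a relative ratio of 0.977 (0.549 to 1.74) to D0.

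Tead4, known for its part in forming the trophectoderm, had the highest promoter value of the TEAD genes at D6T-. Its pileup was 30 tags (D0), 50 (D3), 91 (D6T-), 19 (D9T-), 31 (D12S+), 39 (D16S+), 26 (iPSCs) and 24 in both D6 siH3.3 and D6 siNT. At D6T- this was 4.25 tags per 1000000 (3.43 to 5.22) against 0.946 (0.638 to 1.35) at D0, yet the relative ratio was 1.11 (0.727 to 1.74), which is the common shift of all open promoters. A second Tead4 start site, 24.9 kb into the gene, was open at D0, D3, D6T- and D9T- with 13, 20, 39 and 19 tags and in both siRNA libraries with 11 and 24 tags, and had no region at D12S+, D16S+ or in iPSCs.

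Tead2 and Tead3 had low promoter values throughout, from 0.441 to 1.31 and from 0.599 to 1.40 on the depth scale in the libraries with a region. Neither had a promoter region at D9T- or in D6 siH3.3. For Tead3, a region of 9 tags in D6 siH3.3 lay just inside the gene, past the promoter window. In iPSCs the relative ratio to D0 was 1.14 (0.528 to 2.49) for Tead2 and 1.04 (0.530 to 2.04) for Tead3. The highest signal within 20 kb of Tead3 was at the promoter of the neighbouring gene Fance (129 tags at D6T-), and 17 elements near members lay at promoters of other genes, so values over whole loci are not values of the member alone.

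The cofactor gene Yap1 followed the open promoters closely. It had 26 tags (D0), 53 (D3), 69 (D6T-), 18 (D9T-), 41 (D12S+), 44 (D16S+), 28 (iPSCs), 32 (D6 siH3.3) and 30 (D6 siNT). Relative ratios to D0 lay between 0.886 (0.544 to 1.48) at D3 and 1.10 (0.657 to 1.87) at D12S+. Wwtr1, which encodes TAZ, had 37 tags (D0), 78 (D3), 74 (D6T-), 22 (D9T-), 86 (D12S+), 70 (D16S+), 63 (iPSCs), 20 (D6 siH3.3) and 21 (D6 siNT). Its pileup was the highest of the members at D3, D9T-, D12S+, D16S+ and in iPSCs. Its relative ratio to D0 was 1.62 (1.09 to 2.45) at D12S+, 1.16 (0.767 to 1.77) at D16S+ and 1.60 (1.05 to 2.46) in iPSCs, below the 2-fold limit in each.

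Wisp1 encodes a secreted matricellular protein of the CCN family. Among the targets, it had the lowest ratios to D0 at D3, D6T- and D12S+, where each target had a region. At D9T-, D16S+ and in iPSCs, Ankrd1 had no region, so the targets are not ranked there. The Wisp1 pileup was 41 tags (D0), 49 (D3), 48 (D6T-), 9 (D9T-), 10 (D12S+), 12 (iPSCs), 22 (D6 siH3.3) and 19 (D6 siNT), and no region was called at D16S+. The depth-scaled promoter value was 1.29 (0.928 to 1.75) at D0, 1.62 (1.20 to 2.14) at D3 and 2.24 (1.65 to 2.98) at D6T-. In iPSCs it was 0.451 (0.233 to 0.789), an interval that did not overlap that of D0. At D3 and D6T- the depth-scaled value was thus higher than at D0, but by less than the common shift of open promoters. The relative ratio to D0 was 0.520 (0.336 to 0.807) at D3 and 0.428 (0.276 to 0.666) at D6T-. It was 0.329 (0.141 to 0.688) at D9T-, 0.170 (0.0760 to 0.345) at D12S+ and 0.274 (0.131 to 0.532) in iPSCs. Against the lowest pileup called at D16S+, the ratio there was 0.134.

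Ankrd1, a muscle ankyrin repeat protein induced by stretch, kept an open promoter until day 6. It had 25 tags (D0), 65 (D3), 57 (D6T-), 12 (D12S+), 14 (D6 siH3.3) and 22 (D6 siNT), and no region at D9T-, D16S+ or in iPSCs. The relative ratio to D0 was 1.13 (0.703 to 1.87) at D3, 0.834 (0.513 to 1.39) at D6T- and 0.335 (0.153 to 0.692) at D12S+. Where no region was called, the lowest pileup called in the library gave ratios of 0.420 at D9T-, 0.220 at D16S+ and 0.375 in iPSCs. A missing region does not show that the promoter was closed in every cell.

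Ctgf, a secreted CCN protein of wound repair and fibrosis, had 32 tags (D0), 47 (D3), 60 (D6T-), 10 (D9T-), 31 (D12S+), 39 (D16S+), 25 (iPSCs), 15 (D6 siH3.3) and 20 (D6 siNT). The highest summit lay 0.364 kb inside the gene. Its relative ratio to D0 was 0.469 (0.206 to 0.977) at D9T-, the only library past 2-fold, and 0.732 (0.416 to 1.28) in iPSCs.

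Cyr61, the third CCN gene of the set, had 19 tags (D0), 59 (D3), 69 (D6T-), 20 (D9T-), 31 (D12S+), 49 (D16S+), 39 (iPSCs), 28 (D6 siH3.3) and 26 (D6 siNT). The relative ratio of iPSCs to D0 was 1.92 (1.09 to 3.53). This value came from an element whose highest summit lay 3.47 kb upstream and whose region reached into the promoter window. The element at the start site itself, with 18 tags (D0), 59 (D3), 69 (D6T-), 20 (D9T-), 28 (D12S+), 30 (D16S+) and, last, 16 (iPSCs), had a relative ratio of 0.836 (0.399 to 1.74) in iPSCs. The upstream element had 19, 52, 60, 14, 31, 49 and 39 tags in the same order, and was the higher of the pair in D0 and from D12S+ onward.

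**Figure D2:**
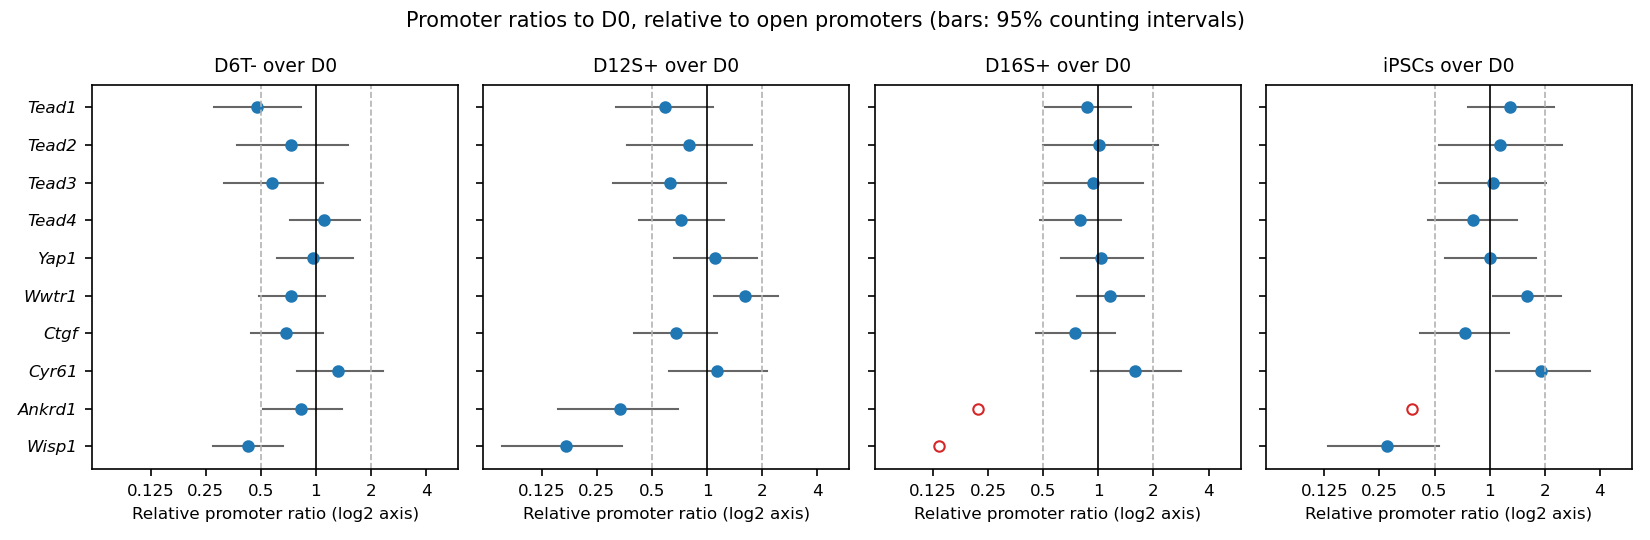
Relative promoter ratios to D0 (log2 axis) of the 10 genes at D6T-, D12S+, D16S+ and in iPSCs, with 95% counting intervals as bars and dashed lines at 2-fold. Open red circles used the lowest pileup called where the later library had no region. Wisp1 lay below 0.5 in all 4 comparisons and Ankrd1 in the last 3.

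The counts past 2-fold were read against all protein-coding genes with a region in either library. Relative to open promoters, the number of members lower than D0 was 0 in D3, where 12.0% of protein-coding genes were. Tead1 and Wisp1 were lower in D6T- (background 16.6%), and Ctgf, Ankrd1 and Wisp1 in D9T- (background 7.97%). Ankrd1 and Wisp1 were the lower members in D12S+ (background 12.9%), D16S+ (background 13.5%) and iPSCs (background 5.39%). The number higher was 0 in every library, where the background was 1.67% (D3), 1.93% (D6T-), 4.87% (D9T-), 3.15% (D12S+), 5.43% (D16S+) and 6.24% (iPSCs). The 2 of 10 members in D6T-, D12S+ and D16S+ are near these backgrounds, while the 3 in D9T- and the 2 in iPSCs are a larger share than theirs. With 10 members and 1 library per condition, nothing particular to the set was read from any of these counts.

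The median log2 relative ratio of the members was -0.41 (D3), -0.45 (D6T-), -0.54 (D9T-), -0.52 (D12S+), -0.15 (D16S+) and 0.03 (iPSCs). Over all protein-coding genes it was -0.16, -0.16, -0.08, -0.10, -0.08 and 0.04. On the depth scale, before the common shift was taken out, 4 members were 2-fold higher in D3 (57.4% of protein-coding genes), 8 in D6T- (84.5%), 1 in D9T- (26.6%), 4 in D12S+ (65.3%), 6 in D16S+ (61.6%) and 2 in iPSCs (15.5%), and these counts lay within the general rise. Those 2-fold lower on that scale were Wisp1 at D12S+ (0.584%), Wisp1 at D16S+ (1.31%) and Ankrd1 and Wisp1 in iPSCs (2.26%). The comparisons share the D0 library, so they are not independent of each other.

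The loci, from 20 kb upstream to 20 kb past the end of each gene, held 70 regions at D0, 108 (D3), 140 (D6T-), 30 (D9T-), 73 (D12S+), 60 (D16S+), 93 (iPSCs), 52 (D6 siH3.3) and 46 (D6 siNT). Joined across libraries, they made 189 elements, of which 95 lay in introns, 25 at promoters and 7 at exons. In the 7 time course libraries, 14 elements were open in all, 52 in both an early (D0, D3 or D6T-) and a late library (D12S+, D16S+ or iPSCs), 94 in early libraries only and 28 in late libraries only. D9T- counted as neither early nor late, so an early-only element could also be open there. Examples lay 24.9 kb into Tead4, 31.3 kb into Yap1 and 8.73 kb downstream of the Cyr61 start site. Their depth-scaled values at D9T- were 1.44, 1.29 and 0.757. Early-only elements were 49.7% of the members' elements and 58.8% of those of the genome, and late-only elements 14.8% and 13.7%. Many were seen once: 41 of the 94 early-only elements were open in D6T- alone, the library with the most regions, and 16 in all 3 early libraries.

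Wisp1, with 18 elements, and Ankrd1, with 4, had no late-only element, a class that held 13.7% of the genome's elements. Of the 18 Wisp1 elements 13 were early only (58.8% over the genome), and 6 of these were open in D0, D3 and D6T- alike. They lay 15.3 kb (24, 36 and 24 tags in that order), 13.4 kb (14, 19 and 16), 7.54 kb (27, 28 and 37) and 2.29 kb (18, 20 and 21) upstream, and 1.05 kb (15, 29 and 19) and 2.88 kb (22, 22 and 25) into introns. The intron element at 8.49 kb was the Wisp1 element open at D12S+, D16S+ and in iPSCs alike, with 15, 13 and 13 tags. Around Ankrd1, the element 9.59 kb upstream had 30, 31 and 33 tags at D0, D3 and D6T-, 12 in D6 siH3.3 and 22 in D6 siNT, and no region from D9T- onward. In the later libraries without these upstream elements, a low promoter region remained for Ankrd1 at D12S+ and for Wisp1 at D9T-, D12S+ and in iPSCs.

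At Ctgf the promoter remained and the surroundings changed. The elements 14.2 kb and 6.02 kb upstream, whose letters are printed above, had 20 and 24 tags at D0, 31 and 29 at D3 and 40 and 27 at D6T-, and no region at D9T-, D12S+, D16S+ or in iPSCs. In D6 siH3.3 they had 19 and 8 tags, and in D6 siNT the first had 13 tags and the second no region. An element 20.5 kb downstream had 21, 21 and 23 tags at D12S+, D16S+ and in iPSCs and no region earlier. An element 4.65 kb upstream had 32 tags in iPSCs, more than the 25 at the promoter, and no region at D0. At Cyr61, 7 of 12 elements were early only, 6 of them in D6T- alone, and none was late only. Over the genome, 58.8% of elements were early only and 13.7% late only.

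**Figure D3:**
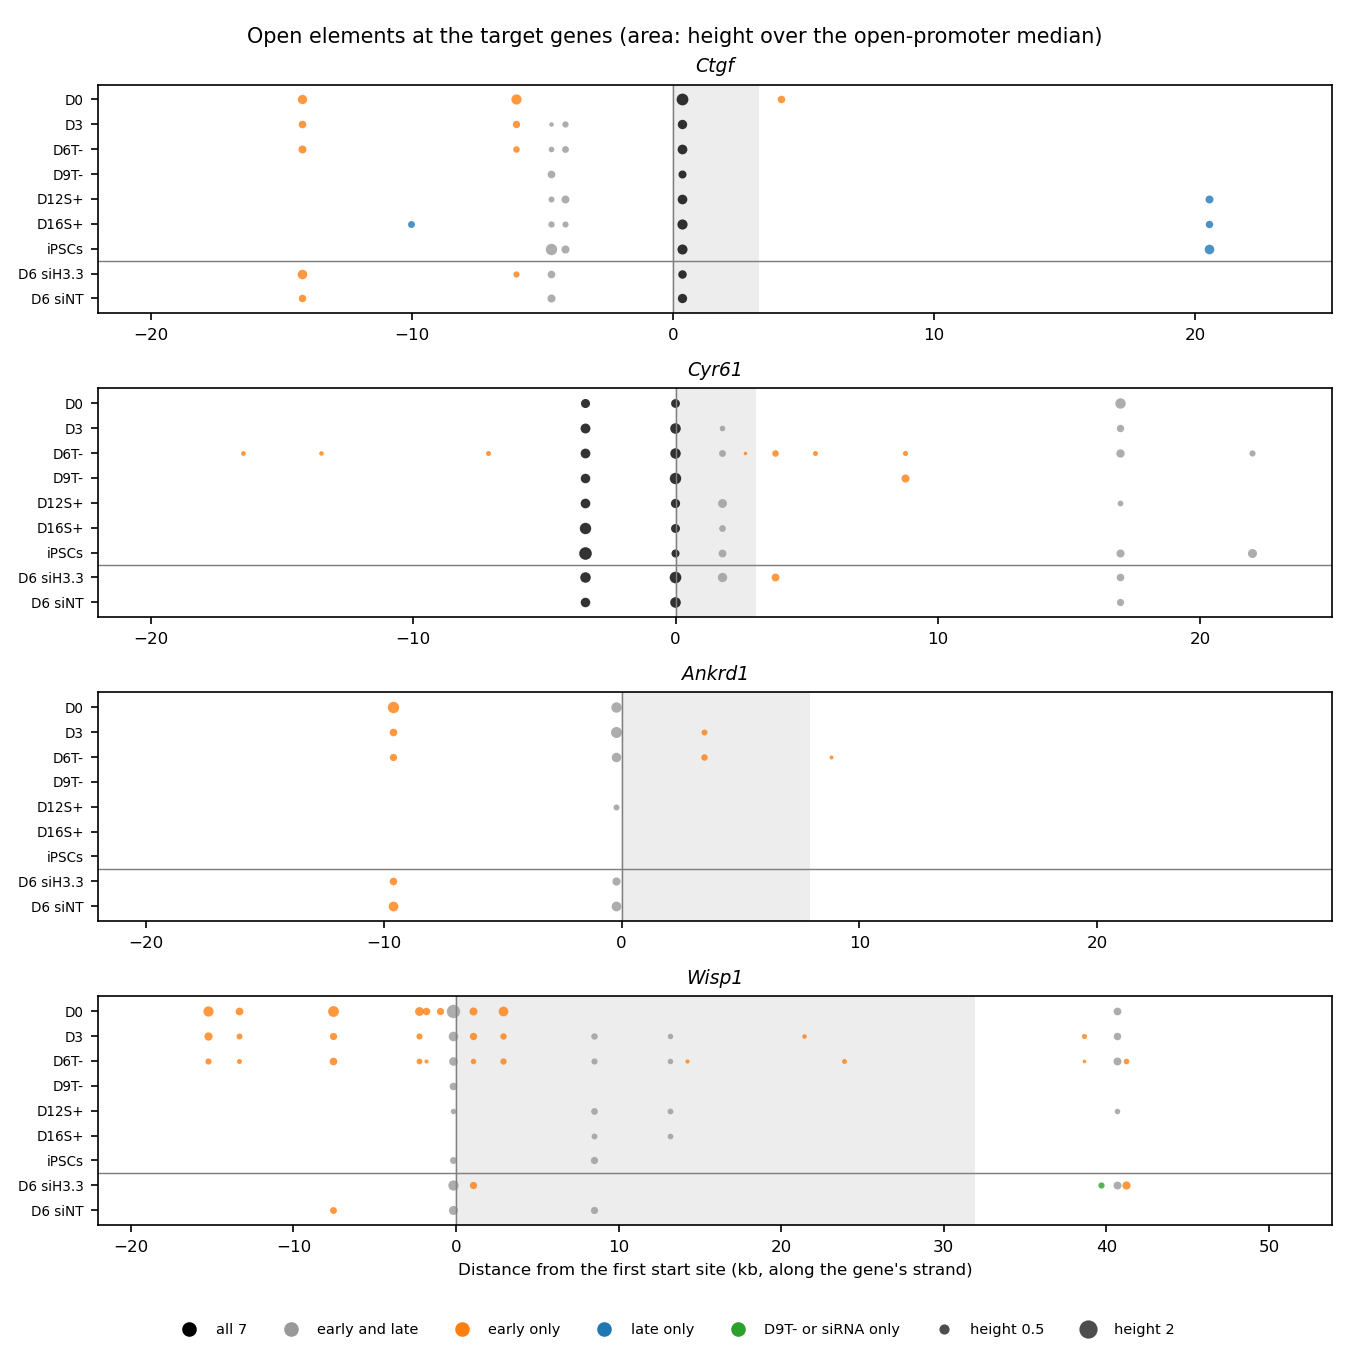
Open elements at the 4 target genes by distance of the highest summit from the first start site (kb, along the gene's strand; grey band, gene body) in each library (rows); dot area is the pileup over the open-promoter median and colour the pattern over the time course. Ctgf, Ankrd1 and Wisp1 show orange upstream elements at D0, D3 and D6T- that end by D9T-, and Ctgf a blue element 20.5 kb downstream from D12S+ onward.

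The 6 TEAD and cofactor genes, whose loci held 147 of the 189 elements, had 26 late-only elements. The targets had 2 among 42 elements, and over the genome 13.7% of elements were late only. Tead1 had 10 late-only elements, of which 3 were open in D12S+, D16S+ and iPSCs alike. The element at a Tead1 exon 163 kb from the first start site had 45, 52 and 28 tags in that order, the highest of the 3 at D12S+ and D16S+ but lower in iPSCs than the 36 tags of the element at 12.1 kb, and no region in the 4 earlier or the 2 siRNA libraries. Another, 64.5 kb into the gene, had 16, 36 and 27 tags. Beside them, an intron element at 145 kb was open in all 9 libraries with 23, 46, 87, 17, 48, 45 and 28 tags over the time course and 28 and 25 tags in D6 siH3.3 and D6 siNT, and at D6T- it was higher than the Tead1 promoter. In the opposite direction, an element 135 kb into the gene had 21, 31 and 26 tags at D0, D3 and D6T- and no region later.

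Yap1 had a pair of late-only elements that were open in D12S+, D16S+ and iPSCs alike. They lay 4.86 kb into the gene, with 22, 35 and 35 tags at D12S+, D16S+ and in iPSCs, and 20.7 kb into it, with 17, 37 and 33 tags. Neither had a region in any earlier or siRNA library, and in iPSCs both were higher than the Yap1 promoter at 28 tags. The element 51.4 kb into Yap1 was open early only, with 16, 21 and 27 tags at D0, D3 and D6T-. Early-only elements outnumbered late-only ones at each of these genes, as they did over the genome (58.8% against 13.7% of elements). The counts were 12 against 3 at Yap1, 19 against 10 at Tead1 and 17 against 1 at Wwtr1, where 9 of the 17 were open in D6T- alone. Nothing particular to a gene was read from these counts. The element 74.0 kb into Wwtr1 had 24, 21 and 38 tags at D0, D3 and D6T- and 11 in D6 siH3.3.

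**Figure D4:**
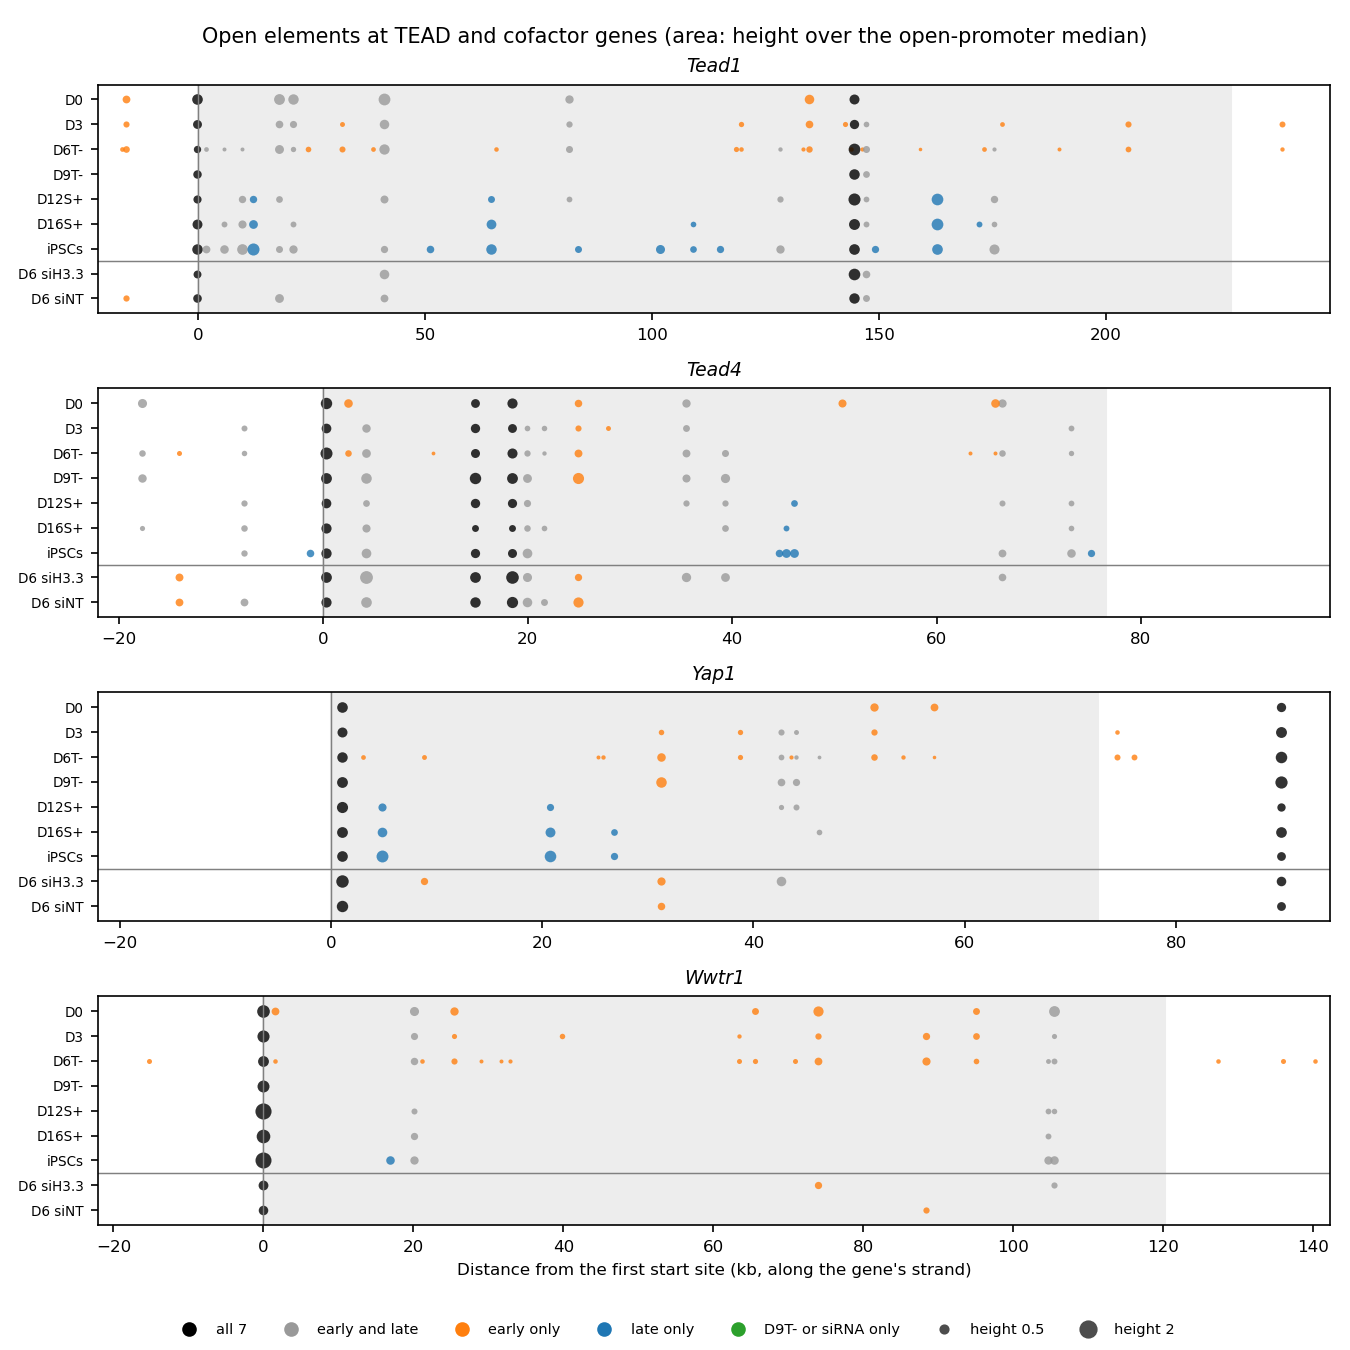
Open elements at Tead1, Tead4, Yap1 and Wwtr1, drawn as for the targets: distance from the first start site in kb against library, dot area as pileup over the open-promoter median. Blue late-only elements stand at Tead1 (12.1 kb, 64.5 kb and 163 kb) and Yap1 (4.86 kb and 20.7 kb), and orange early-only elements fill the Wwtr1 gene body.

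Sequence had no part in choosing the genes. In the 200 bp around the highest summit, GGAATG on either strand was found in 35 of the 189 member elements (18.5%), against 15.2% of 210151 elements of the genome, and TGANTCA in 57 (30.2%) against 24.2%. Early-only elements held TGANTCA in 41 of 94 (43.6%, genome 31.1%) and late-only elements in 2 of 28 (7.14%, genome 5.41%), so the fall from early to late was shared with the genome. GGAATG was in 14 of 94 early-only (14.9%, genome 16.3%) and 6 of 28 late-only elements (21.4%, genome 14.0%). The E-box CACGTG was in 12 of 189 elements (6.35%, genome 3.69%). By gene, 3 of 4 Ankrd1 elements, 4 of 18 at Wisp1, 2 of 8 at Ctgf and 11 of 41 at Tead1 held GGAATG, and none of 13 at Tead2. All 4 Wisp1 elements with it were early only, as were 13 of all 18 Wisp1 elements. At Ctgf, where 3 of 8 elements were early only, both were the upstream elements that had no region from D9T- onward. Counted per library, the share of the members' regions with GGAATG was 22.9% for D0 (17.6% of all its regions), 21.3% for D3 (15.3%), 17.9% for D6T- (16.0%), 21.9% for D12S+ (13.9%), 13.3% for D16S+ (11.2%), 22.6% for iPSCs (12.1%), 23.1% for D6 siH3.3 (13.9%) and 26.1% for D6 siNT (13.7%). At D9T- it was lower than that of all regions, 13.3% (4 of 30) against 13.9%. With the longer GGAATGT, the members' share was lower at D6T- (5.00% against 5.25%), D9T- (3.33% against 4.24%) and D16S+ (1.67% against 3.15%). It was higher than that of all regions in the other libraries.

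The knockdown of H3.3 was compared with its non-targeting control at day 6. None of the 10 members was past 2-fold between D6 siH3.3 and D6 siNT on either scale, where 0.611% of protein-coding genes were higher and 1.28% lower relative to open promoters, and 0.936% higher and 0.905% lower on the depth scale. The relative ratio ran from 0.707 (0.335 to 1.45) for Ankrd1 to 1.29 (0.665 to 2.51) for Wisp1 among the 8 members with a region in both, and every interval held 1. Each of these 8 intervals also held a 2-fold difference in one direction. A 2-fold difference in that direction is thus excluded for none of these genes, and smaller differences were not detectable at this depth. Of 52 elements open in either library, 29 were shared, with depth-scaled ratios from 0.535 to 1.71 and a median of 1.17, and no interval left out 1. A further 15 had a region in D6 siH3.3 alone and 8 in D6 siNT alone, and 14 and 8 of these were open in D6T- too. Set against the lowest pileup called in D6 siNT, 4 of the 15 were past 2-fold on the depth scale, at Yap1 (19 tags, 2.46), Tead4 (18 and 16 tags, 2.33 and 2.07) and Cyr61 (18 tags, 2.33), and none of the 8 was past 2-fold the other way. These 4 have no interval, since a missing region has no pileup. The open-promoter median was 1.45 in D6 siH3.3 and 1.38 in D6 siNT, so their ratios relative to open promoters would be lower. In all, D6 siH3.3 had 47348 regions and D6 siNT 46481. The same split over all elements of the genome is not given, so nothing particular to the members is read from the counts of elements in 1 library.

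D6 siNT and D6T-, both day 6 libraries without a knockdown, show how far apart such libraries can lie. On the depth scale all 10 members were 2-fold lower in D6 siNT, as were 78.2% of protein-coding genes. Relative to open promoters none was past 2-fold (background 5.61% higher and 1.37% lower), with ratios between 0.721 (0.440 to 1.14) for Tead4 and 1.37 (0.716 to 2.52) for Tead1.

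**Figure D5:**
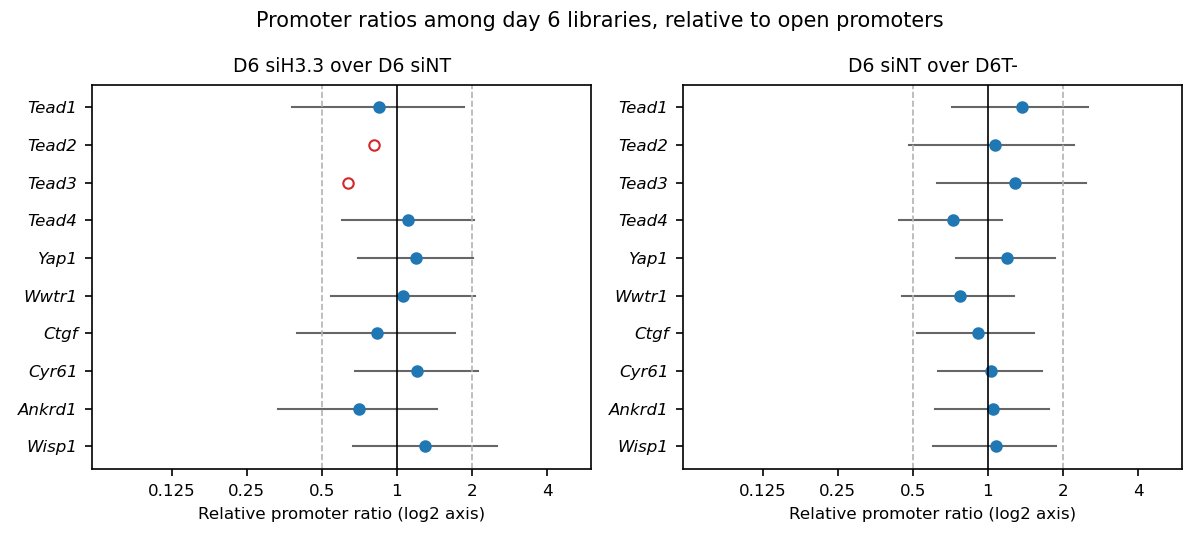
Relative promoter ratios (log2 axis) of the 10 genes between D6 siH3.3 and D6 siNT (left) and between D6 siNT and D6T- (right), with 95% counting intervals as bars and dashed lines at 2-fold; open red circles used the lowest pileup called, as Tead2 and Tead3 had no region in D6 siH3.3. All 20 points lie between the dashed lines.

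The wider pathway was described with the same rule. Of 17 Hippo kinases and regulators, 16 had a promoter region at D0 (58.0% of protein-coding genes) and 17 in iPSCs (63.9%). Relative to open promoters, 1 was 2-fold higher (background 5.43%) and 2 lower (13.5%) at D16S+, and 0 either way in iPSCs (6.24% and 5.39%). None was thus 2-fold from D0 in the same direction in both, and the median log2 relative ratio was 0.25 in iPSCs. Of the 4 Vgll genes, whose proteins compete with YAP and TAZ for TEADs, Vgll3 was higher, with 38 tags at D0, 167 at D16S+ and 88 in iPSCs, or relative ratios of 2.69 and 2.17. Vgll1 had no promoter region in any library. The share of all protein-coding genes past 2-fold in both D16S+ and iPSCs is not given. Nothing particular to these lists is thus read from that rule.

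Of 16 further YAP and TAZ targets, 2 were 2-fold higher (background 5.43%) and 3 lower (13.5%) at D16S+, and 4 higher (6.24%) and 2 lower (5.39%) in iPSCs. Gadd45a, a DNA damage and stress gene, had 40 tags at D0, 171 at D16S+ and 88 in iPSCs, relative ratios of 2.62 and 2.06. Nuak2, a kinase gene, had no region at D0 and 40 and 27 tags, which against the lowest pileup called at D0 gave 2.23 and 2.30. On the other side, Ccdc80, an extracellular matrix gene, had 28 tags at D0 and no region at D12S+, D16S+ or in iPSCs, and Rbms3, an RNA-binding protein gene, had 19 tags at D0 and no region at D16S+ or in iPSCs. Promoters of further targets thus lay on both sides of D0.

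Over the 9 libraries, the depth-scaled promoter values of Ankrd1 and Wisp1 were most alike among the pairs that involve either gene (Pearson r = 0.90, and 0.89 on the relative scale). The genes most like Ankrd1 were 3930402G23Rik (r = 0.982), Cpa6 (0.973) and Murc (0.971), and those most like Wisp1 were Apol7a (0.983), Gltscr1 (0.980) and Siglece (0.974). For Yap1 they were Mrpl51 (0.994), Ncapd2 (0.994) and Rab3ip (0.992), but 3832 of 13619 genes reached 0.9 with Yap1 on that scale and 2 on the relative scale. Tead1 was most like Irf8 (0.992), Klhl22 (0.989) and Scrn1 (0.987), Tead2 like Whrn (0.989), Rpa1 (0.982) and Smyd4 (0.982), Tead3 like Mrpl42 (0.990), Ddx27 (0.990) and Syf2 (0.986), and Tead4 like Tubb2a, Tnfrsf21 and Taf13 (0.990 each). Wwtr1 was most like Ovca2 (0.985), Chchd8 (0.982) and Yjefn3 (0.980), Ctgf like Dip2b (0.990), Galnt7 (0.988) and Cul7 (0.988), and Cyr61 like Kcna4 (0.991) and Utp6 (0.989). All of these share the libraries' depth and general signal, and libraries without a region entered at their lowest pileup called.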

How the data were processed

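The deposited files were 9 MACS2 peak tables, 1 per condition. As stated in the methods and the submitters' processing notes, the authors aligned reads to mm9 with STAR, removed duplicates with Picard and called summits with MACS2 2.1.0.20151222 without a control or local background at a q-value of 0.05, extending tags to 200 bp. The deposited pileup is a signal (overlapping extended tags), the deposited fold enrichment a ratio to a genome-wide background, and the deposited p-value and q-value columns are −log10 values. All files held mitochondrial regions, although the methods state that such reads were removed, so the tag totals may hold mitochondrial tags.

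Peaks sharing at least 1 bp were merged, and each GENCODE gene (mm9) took the highest summit pileup of regions touching the 3 kb upstream of its start sites or its locus (20 kb flanks), per 1000000 tags. Regions of all libraries were joined into elements with the same 1 bp overlap. Intervals came from SciPy 1.17.1 at 95%. The fold limit was 2. Merging and motif counting were tested on simulated data (2000 of 2000 regions and 400 of 400 motifs recovered). The members, lists and rules were chosen with earlier results of these data known. All members were named, list genes if past 2-fold in the same direction at D16S+ and in iPSCs relative to open promoters, and the 3 genes most like each member among those with a promoter region in at least 5 libraries. For Cyr61, 1 of these is not reported here. Ajuba was found as Jub, and a second, non-coding Tead1 entry was left out. Alternatives were another scaling, window, flank, summit rule, q-value limit, equal region number, fold limit, element join and motif. A supplementary sheet of the study gives no sorting for the siRNA libraries.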

Additional observations from a re-analysis of the deposited data

How the results depend on the processing

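No paired analysis was possible because each condition has 1 library. The scaling changed most values. Scaled to the promoters open in all 9 libraries, the median log2 ratio of the members to D0 moved to -0.41 at D3, -0.45 at D6T-, -0.52 at D12S+ and -0.15 at D16S+, and that of D6 siNT over D6T- to 0.09. With that scaling 0 members were 2-fold higher at D3, D6T-, D9T-, D12S+, D16S+ or in iPSCs, 2 were lower at D6T-, 3 at D9T-, 2 at D12S+ and 2 at D16S+, and 0 were lower in D6 siNT over D6T-. Of the log2 ratios to D0 past 2-fold on the depth scale, those that turned sign were, at D3, -0.17 (Yap1) and -0.13 (Wwtr1), at D6T-, -0.45 (Tead2), -0.79 (Tead3), -0.04 (Yap1), -0.45 (Wwtr1), -0.54 (Ctgf) and -0.26 (Ankrd1), at D12S+, -0.33 (Tead2), and at D16S+, -0.20 (Tead1) and -0.10 (Tead3). With members under 2-fold included, 8 of 10 turned sign in D3 and D6T-, 4 in D9T- and in D16S+, 5 in D12S+ and 1 in iPSCs. In D6 siNT over D6T- they became 0.45 (Tead1), 0.10 (Tead2), 0.35 (Tead3), 0.25 (Yap1), 0.04 (Cyr61), 0.08 (Ankrd1) and 0.11 (Wisp1).

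With only summits inside the promoter, Ctgf became -1.43 in D6T- over D0 and 1.30 in D6 siNT over D6T-, since its highest summit lies inside the gene. On the depth scale, a fold limit of 1.5 gave 8 members higher at D3, 3 at D9T- and 8 at D12S+, and 1 lower at D9T- and 2 at D16S+. With a −log10 q of at least 5, 4 members kept a promoter region at D9T-, and the loci held 42 regions at D0, 71 at D3, 18 at D9T-, 45 at D12S+, 55 in iPSCs and 33 in D6 siH3.3. With equal numbers of the strongest regions they held 35 at D0, 36 at D3, 37 at D6T-, 39 at D12S+ and 56 in iPSCs, so the rank of D6T- rests on its number of regions. Of 132 alternatives to the values over all members 99 stayed close, 30 moved and 3 reversed. Of 859 alternatives to the other values 669 stayed close, 170 moved and 20 reversed. The alternatives for medians with the narrow promoter and with summits inside it were chosen after seeing the data. Low pileups limit every value, since 10 tags or fewer lie near the lowest pileup called, which was 7 to 11 tags per library.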
